A study of Mus musculus with 14 samples.

Results

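The 9 genes described here encode the enzymes that oxidise choline to betaine, run the methionine cycle and carry homocysteine into transsulfuration: Chdh, Bhmt, Bhmt2, Dmgdh, Sardh, Mat1a, Gnmt, Ahcy and Cbs. They were chosen by gene symbol, and each of the 9 had 1 annotated probe set among 19505 symbols on the array. The RNA came from adult C57Bl6 males of wild-type genotype after 2 weeks on a diet, hybridised to 14 Clariom S mouse arrays. The 4 groups were total liver on CDAA (n = 4) and on CSAA (n = 4), and primary hepatocytes on CDAA (n = 3) and on CSAA (n = 3). CDAA is a choline-deficient, amino acid-defined diet, given here with added cholesterol, glucose and fructose, and CSAA is its choline-supplemented control. Each array came from an independent preparation: liver from the caudal lobe after saline perfusion, hepatocytes by collagenase perfusion, with a different RNA kit for each tissue. The labels name these additions for CDAA only, so the effect of choline and that of the additions cannot be told apart.

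Choline that is not built into phospholipid is oxidised to betaine in liver mitochondria, and betaine donates a methyl group to homocysteine to give methionine. Methionine is turned into S-adenosylmethionine, the methyl donor of most methylation reactions, and the product of methyl transfer is hydrolysed back to homocysteine, which either re-enters the cycle or is condensed with serine on the way to cysteine. Most of this enzyme set is characteristic of hepatocytes, and choline-deficient diets are a standard way to stress it.

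Values are log2 probe set intensities, so that a difference of 1 is a 2-fold change, and differences are CDAA minus CSAA. The median over all probe sets was 6.07 to 6.24 on the liver arrays and 4.56 to 4.71 on the hepatocyte arrays, so levels were not compared between the tissues. Array maxima were 19.23 to 19.92, above what the log2 of plain scanner brightness reaches, so sizes of differences hold on the deposited scale only. All 9 genes lay above the 95th percentile of the negative control probe sets on every array, Chdh nearest to it, with a smallest margin of 1.07. Hepatocyte arrays strayed further from their group means (root mean square 0.363 to 0.594) than liver arrays (0.229 to 0.320). Tests were therefore made in 2 ways, with limma, and in each the p-values of all 22206 tested probe sets were adjusted together by Benjamini-Hochberg. The shared fit takes 1 spread per gene from all 14 arrays and is the main test. The tissue-only fit takes it from the compared arrays alone.

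The labelled cell type was checked against markers. In hepatocyte preparations on CSAA, 8 of 8 Kupffer cell and 7 of 8 recruited macrophage markers lay under the control percentile on every array. Of sinusoidal endothelial markers 5 of 8 did, of stellate cell markers 7 of 8 and of hepatocyte markers 0 of 23. On CDAA only 1 of 8 Kupffer cell markers, 1 of 8 recruited macrophage, 1 of 8 sinusoidal endothelial and 1 of 8 stellate cell markers did. Markers of these 4 cell types were thus mostly above background in the CDAA preparations. On every CDAA array, 5 of 6 cholangiocyte and 4 of 6 neutrophil markers lay under the control percentile. So did 7 of 8 T and NK cell and 4 of 4 B cell markers. Even so, the shared fit called 4 of 6 neutrophil, 3 of 8 T and NK cell and 2 of 4 B cell markers higher on CDAA. It called 0 of 6 cholangiocyte markers, and 11% of all probe sets were called higher. The mean Kupffer cell marker level was 10.50 to 11.74 in CDAA preparations and 4.96 to 5.30 in CSAA preparations, and that of sinusoidal endothelial markers 9.56 to 10.76 on CDAA and 6.11 to 6.66 on CSAA. Hepatocyte markers averaged 15.10 to 15.97 in CDAA preparations and 16.57 to 16.79 in CSAA preparations. In total liver they averaged 15.91 to 16.11 on CDAA and 16.45 to 16.51 on CSAA, with a median difference of -0.40, while recruited macrophage markers averaged 10.58 to 11.54 on CDAA and 5.85 to 5.90 on CSAA. Single hepatocyte markers differed unequally, from -1.85 to 0.43 in total liver and from -2.92 to -0.01 in hepatocyte preparations. Alb was flat in both (-0.00 and -0.01), and C8a was the lowest in both. In such bulk RNA, fewer hepatocytes and less RNA per hepatocyte cannot be told apart. Whether the diet changed the expression of single markers was not tested apart from these.

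The first comparison asked how the enzymes differed between diets in total liver. Gnmt was the only one of the 9 genes to fall in the shared fit, against 3.54% of all tested probe sets called lower, and none rose, against 6.73%. With the spread of the liver arrays alone, Gnmt, Cbs, Sardh, Bhmt2 and Dmgdh fell, 5 of 9 against 9.05% of all probe sets, and Mat1a rose, against 11.7%. These 6 were also the genes whose diet groups did not overlap, 5 lower (12% of all probe sets) and 1 higher (13.1%). Hepatocyte markers behaved much the same: of 23, 2 fell in the shared fit and 10 in the liver-only fit, and none rose. Their diet groups did not overlap for 16 lower and 3 higher. Chdh, Bhmt and Ahcy passed in neither fit. The 9 differences had a median of -0.60, beside -0.08 over all named genes and -0.40 over the hepatocyte markers.

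**Figure D1:**
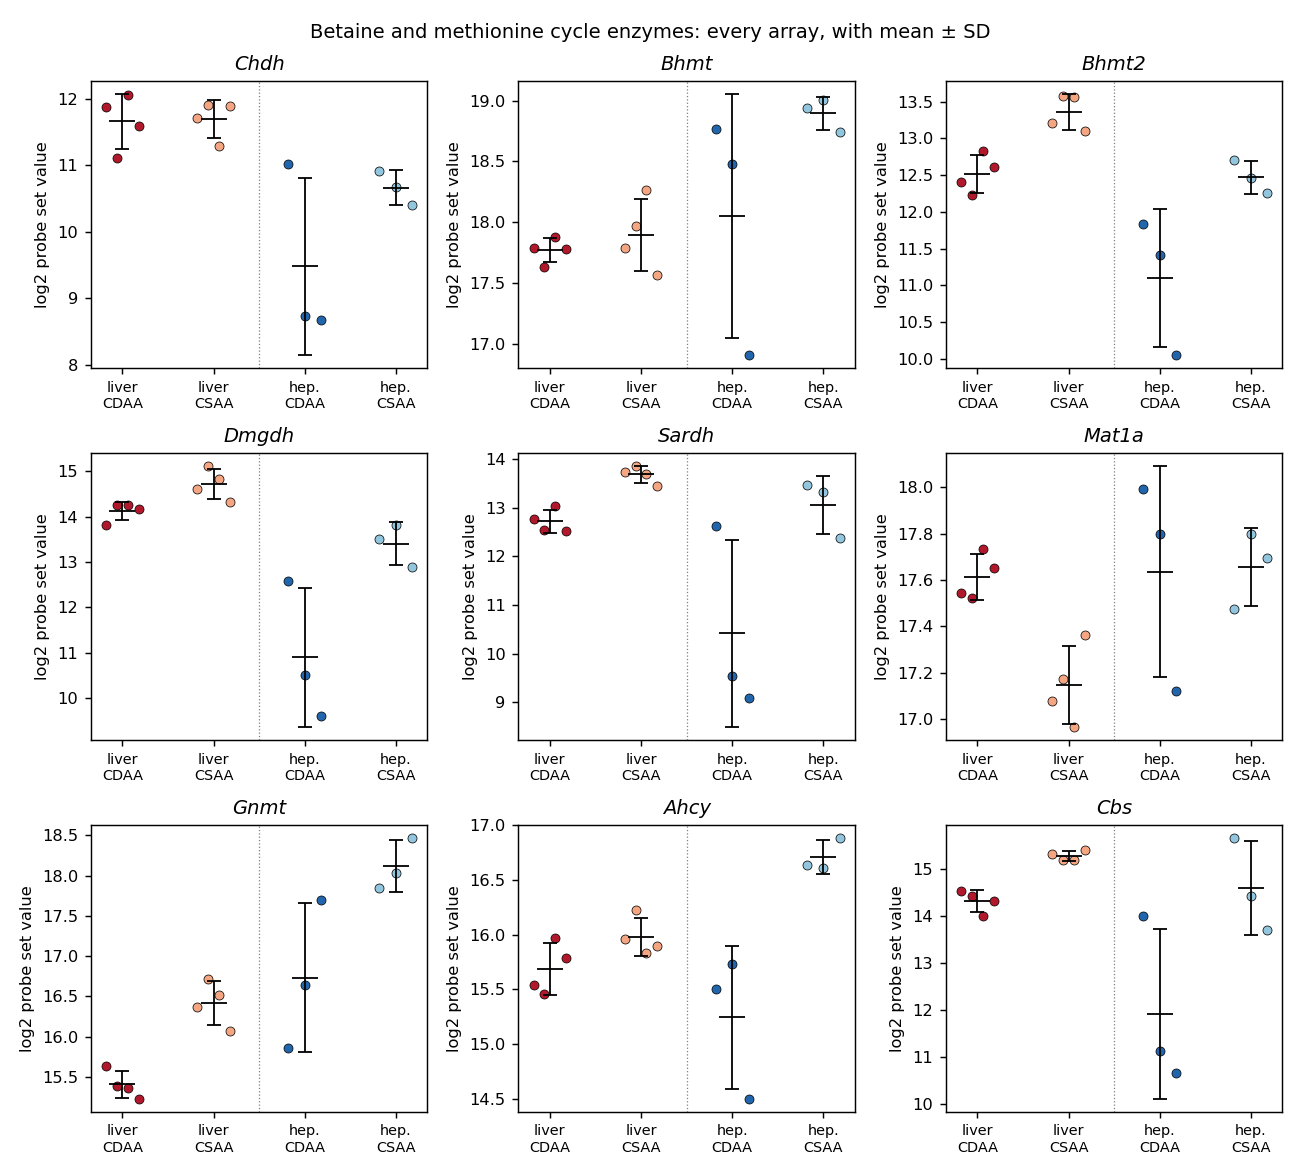
Log2 probe set value of the 9 enzyme genes (y axis) on every array of the 4 groups (x axis; hep., primary hepatocytes). Points are arrays and bars are mean ± SD (n = 4 per liver group, n = 3 per hepatocyte group). In total liver the CDAA and CSAA points part cleanly for Gnmt, Cbs, Sardh, Bhmt2, Dmgdh and Mat1a, and the CDAA hepatocyte preparations scatter widely.

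Choline enters the route through Chdh, choline dehydrogenase of the inner mitochondrial membrane. Chdh (probe set TC1400000301.mm.2) read 11.88, 11.11, 12.05 and 11.59 in CDAA livers, against 11.70, 11.91, 11.29 and 11.89 in CSAA livers. The ranges overlap fully, and the difference of -0.04 ± 0.41 (SE) had a 95% interval of -0.91 to 0.83.

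Betaine is used by Bhmt, betaine-homocysteine methyltransferase. Bhmt (TC1300002436.mm.2) read 17.79, 17.63, 17.88 and 17.78 in CDAA livers, against 17.78, 17.97, 18.26 and 17.57 in CSAA livers. All CDAA values lay inside the CSAA range, with a difference of -0.13 ± 0.31 and an interval of -0.79 to 0.53. Bhmt is among the brightest probe sets, near the array maxima of 19.23 to 19.36 in liver.

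Bhmt2 is its paralog and neighbour, which methylates homocysteine from S-methylmethionine instead of betaine. Bhmt2 (TC1300002437.mm.2) read 12.41, 12.23, 12.83 and 12.61 in CDAA livers, against 13.20, 13.57, 13.56 and 13.10 in CSAA livers. Every CDAA liver lay below every CSAA liver. The difference of -0.84 ± 0.30 missed the threshold in the shared fit (adjusted p = 0.0982) and passed in the liver-only fit (adjusted p = 0.00639).

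The dimethylglycine left by the betaine reaction is demethylated by Dmgdh to sarcosine, and sarcosine by Sardh to glycine, both in mitochondria. Dmgdh (TC1300001051.mm.2) read 13.82, 14.25, 14.26 and 14.16 in CDAA livers, against 14.61, 15.12, 14.82 and 14.33 in CSAA livers. The groups part by a narrow gap, and the difference was -0.60 ± 0.45 (adjusted p = 0.460 in the shared fit and 0.0433 in the liver-only fit). Sardh (TC0200003214.mm.2) read 12.78, 12.55, 13.04 and 12.52 in CDAA livers, against 13.73, 13.87, 13.71 and 13.45 in CSAA livers. Every CDAA liver lay below every CSAA liver, and the difference of -0.97 had an SE of 0.54 in the shared fit (adjusted p = 0.305) and of 0.16 in the liver-only fit (adjusted p = 0.00155).

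Mat1a encodes the S-adenosylmethionine synthetase of adult liver and was the only enzyme of the 9 with a higher mean on CDAA. Mat1a (TC1400000411.mm.2) read 17.54, 17.52, 17.73 and 17.65 in CDAA livers, against 17.08, 17.17, 16.97 and 17.36 in CSAA livers. Every CDAA liver lay above every CSAA liver, with a difference of 0.47 ± 0.19 (adjusted p = 0.157 in the shared fit and 0.0373 in the liver-only fit). Mat2a, the synthetase of other tissues, had no named probe set and was not analysed here.

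Gnmt, glycine N-methyltransferase, consumes S-adenosylmethionine to make sarcosine and is regarded as the liver's overflow for excess methyl groups. Gnmt (TC1700002187.mm.2) read 15.64, 15.39, 15.37 and 15.23 in CDAA livers, against 16.36, 16.71, 16.52 and 16.07 in CSAA livers. The groups did not overlap, and Gnmt fell by 1.01 on the log2 scale (SE 0.30, adjusted p = 0.0458 in the shared fit, 0.00147 in the liver-only fit). The shared-fit call was lost without any 1 of the 8 liver arrays, whereas the liver-only calls of Gnmt, Bhmt2, Cbs and Sardh held without each of them. The liver-only calls of Dmgdh and Mat1a were lost without any 1 liver array other than CSAA liver 4.

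Ahcy hydrolyses S-adenosylhomocysteine, the inhibitory product of methylation reactions. Ahcy (TC0200004953.mm.2) read 15.54, 15.46, 15.97 and 15.79 in CDAA livers, against 15.96, 16.23, 15.84 and 15.89 in CSAA livers. The groups overlap, and the difference of -0.29 ± 0.24 had an interval of -0.80 to 0.22. Cbs, cystathionine beta-synthase, commits homocysteine to transsulfuration. Cbs (TC1700001822.mm.2) read 14.54, 14.43, 13.99 and 14.32 in CDAA livers, against 15.31, 15.19, 15.20 and 15.40 in CSAA livers. The groups lie well apart, at -0.95 ± 0.55 in the shared fit (adjusted p = 0.322) and with an SE of 0.15 in the liver-only fit (adjusted p = 0.00113).

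**Figure D2:**
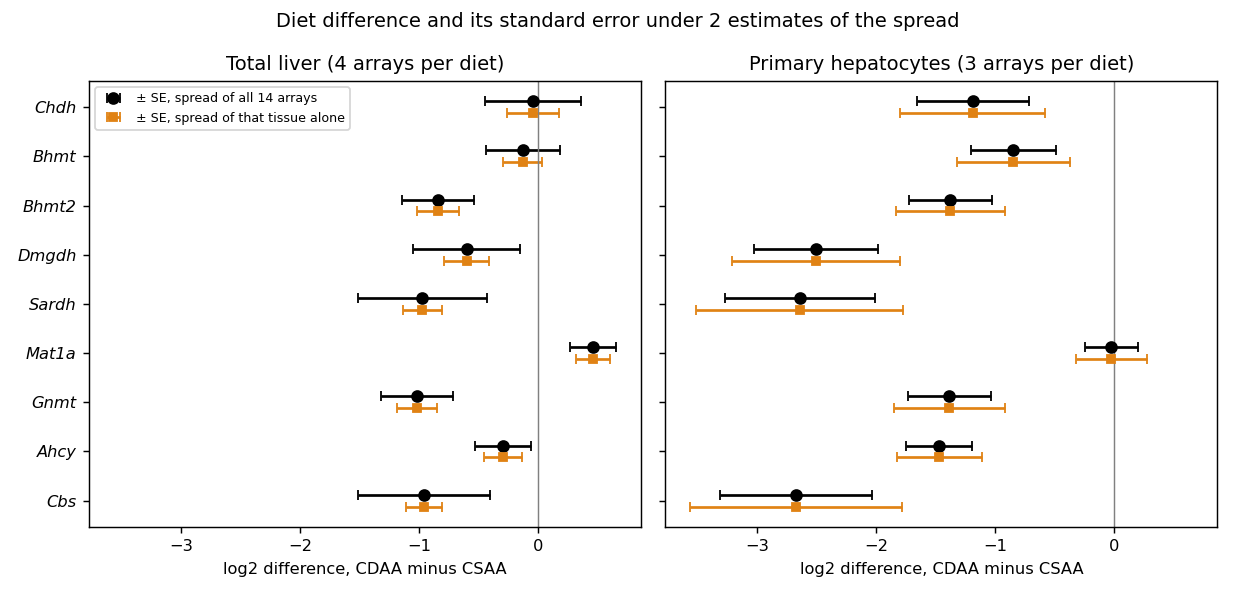
Log2 difference between diets, CDAA minus CSAA (x axis), for the 9 enzymes (y axis) in total liver (left) and primary hepatocytes (right). Circles carry the standard error from all 14 arrays and squares that from the tissue alone. The liver-only errors are smaller for all 9 genes (0.15 for Cbs, against 0.55) and the hepatocyte-only errors larger.

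As a list, though not each alone, the hepatocyte markers moved with these differences in liver. After each array was centred on their median the picture changed. Centring moved the median of all tested probe sets in liver to 0.51, against -0.09 on the deposited scale. The median of the 9 enzymes became 0.00. None fell, against 0.95% of all probe sets called lower in the shared fit and 1.53% in the liver-only fit. Mat1a, at 1.07 ± 0.24 against the shifted median of 0.51, was the only one called higher (adjusted p = 0.00369 in the shared fit), where 23.7% of all probe sets were called higher in the shared fit and 43.6% in the liver-only fit. Gnmt stood at -0.41 ± 0.39 and Sardh at -0.37 ± 0.43.

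The second comparison asked the same of the hepatocyte preparations. In the shared fit 6 of 9 enzymes fell on CDAA (Cbs, Sardh, Dmgdh, Ahcy, Gnmt and Bhmt2), against 7.74% of all probe sets called lower, and none rose, against 11%. In the hepatocyte-only fit Ahcy alone fell, against 1.95%, and none rose, against 6.53%. The CDAA group lay wholly below the CSAA group for 4 genes, Bhmt2, Gnmt, Ahcy and Dmgdh, against 14.2% of all probe sets, and wholly above it for none, against 12.4%. The median difference was -1.38, beside -0.13 over all named genes and -1.09 over the hepatocyte markers. Of these 23 markers 14 fell in the shared fit and 4 in the hepatocyte-only fit, and 15 lay wholly lower on CDAA. The 3 CDAA preparations were unlike one another: their lowest pairwise correlation over probe sets was 0.952, against 0.978 among CSAA preparations.

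Sardh, Cbs, Dmgdh and Chdh split the CDAA preparations. Sardh read 12.62, 9.55 and 9.08 in CDAA preparations 1, 2 and 3, against 13.47, 13.33 and 12.37 in CSAA preparations. Cbs read 13.99, 11.12 and 10.66 on CDAA, against 15.67, 14.42 and 13.71 on CSAA. Preparation 1 reached into the control range for both genes, while preparations 2 and 3 lay far below it. Dmgdh read 12.59, 10.52 and 9.60 on CDAA, against 13.51, 13.81 and 12.90 on CSAA, with the same order of preparations and no overlap. Chdh read 11.02, 8.74 and 8.68 on CDAA, against 10.92, 10.68 and 10.40 on CSAA. Preparation 1 was the highest of all 6 for Chdh, and the difference of -1.19 ± 0.47 did not pass (adjusted p = 0.0948 in the shared fit). Sardh stood at -2.64 ± 0.63 (adjusted p = 0.00726), Cbs at -2.67 ± 0.64 (adjusted p = 0.00748) and Dmgdh at -2.51 ± 0.52 (adjusted p = 0.00269) in the shared fit. In the hepatocyte-only fit the adjusted p was 0.127, 0.131 and 0.0777 for these 3.

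Gnmt ran the other way among the same preparations. Gnmt read 15.86, 16.65 and 17.70 in CDAA preparations 1, 2 and 3, against 17.84, 18.03 and 18.47 on CSAA. Preparation 1, nearest to the controls for Sardh and Cbs, was the farthest from them for Gnmt. The difference was -1.38 ± 0.35 (adjusted p = 0.0109 in the shared fit, 0.133 in the hepatocyte-only fit). Gnmt was not alone in this order of preparations. Against the CSAA mean, the hepatocyte markers Arg1 (-3.25, -0.82 and -0.55) and Otc (-1.73, -0.58 and -0.45) had it too. The mean of all hepatocyte markers ran the other way (-0.73, -1.28 and -1.60).

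Bhmt read 18.77, 18.48 and 16.91 on CDAA, against 18.94, 19.00 and 18.74 on CSAA, and preparation 3 made most of the difference of -0.84 ± 0.36 (adjusted p = 0.120). Bhmt2 read 11.84, 11.41 and 10.05 on CDAA, against 12.70, 12.46 and 12.25 on CSAA. Bhmt2 was lower in every CDAA preparation and passed in the shared fit at -1.37 ± 0.35 (adjusted p = 0.0115, 0.131 in the hepatocyte-only fit). Ahcy read 15.50, 15.73 and 14.50 on CDAA, against 16.64, 16.61 and 16.89 on CSAA. Every CDAA value lay below every CSAA value, and Ahcy passed in both fits at -1.47 ± 0.28 (adjusted p = 0.0012 in the shared fit, 0.0455 in the hepatocyte-only fit). Mat1a read 17.99, 17.80 and 17.12 on CDAA, against 17.47, 17.80 and 17.70 on CSAA. The Mat1a ranges overlap, with a difference of -0.02 ± 0.23 and an interval of -0.50 to 0.46.

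**Figure D3:**
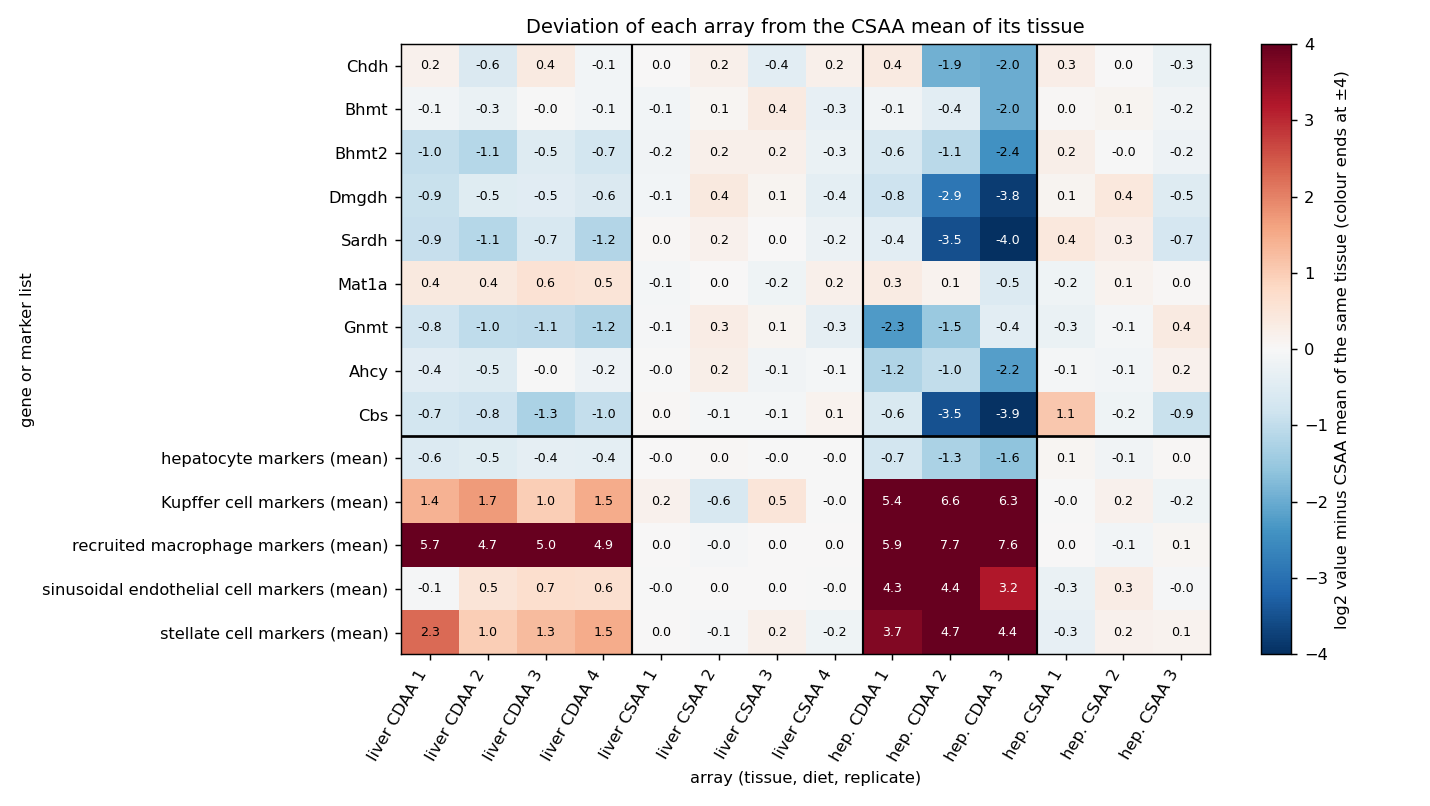
Log2 value of each array minus the CSAA mean of its tissue, for the 9 enzymes and for the mean of 5 marker lists (rows), with arrays in columns (hep., primary hepatocytes). Sardh, Cbs and Dmgdh reach -4.0, -3.9 and -3.8 in hepatocyte preparation 3 on CDAA, where Gnmt stands at -0.4, and the Kupffer cell, recruited macrophage, sinusoidal endothelial and stellate cell marker means lie above the CSAA mean in all 3 CDAA hepatocyte preparations.

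The list means of the CDAA preparations show what moved with these values. Against the CSAA mean, the 9 enzymes averaged -0.60, -1.73 and -2.36 in CDAA preparations 1, 2 and 3, and hepatocyte markers -0.73, -1.28 and -1.60. Kupffer cell markers averaged 5.37, 6.62 and 6.33 and sinusoidal endothelial markers 4.26, 4.39 and 3.19 above it. Centred on the hepatocyte markers, Sardh (-1.43 ± 0.49), Cbs (-1.46 ± 0.52) and Dmgdh (-1.30 ± 0.41) remained lower in the shared fit, with adjusted p = 0.0152, 0.0177 and 0.0101. These were 3 of 9, against 1.12% of all probe sets called lower. Single hepatocyte markers were as low on the deposited scale, such as C8a (-2.92) and Tfr2 (-2.59). The marker list had a median of -1.09 and reached up to -0.01. Since centring shifts every gene of an array by 1 constant, it does not set the 3 enzymes apart from such markers. The same centring moved the median of all tested probe sets in hepatocytes to 1.08, against -0.13 on the deposited scale, and 75.1% of all probe sets were then called higher. Mat1a, at 1.19 ± 0.28, lay close to that shifted median, so its call (adjusted p = 0.00166) is no result about Mat1a. Gnmt, Bhmt2 and Ahcy stood at -0.17, -0.16 and -0.26 and did not pass. With both this centring and the hepatocyte-only spread no enzyme fell, against 0.626% of all probe sets, and Mat1a was called higher along with 50.3% of all probe sets. The part of other cells' RNA in the enzymes' values was not tested further.

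Leaving out CDAA preparation 1 raised the count in the shared fit to 8 of 9, against 12.8% of all probe sets called lower, and that in the hepatocyte-only fit to 6 of 9, against 5.71%. Sardh then stood at -3.74 ± 0.30 and Gnmt at -0.94 ± 0.30. Without preparation 3 the shared fit again called 6, against 7.1%, and Gnmt stood at -1.86 ± 0.28. The hepatocyte-only count was 0 without any 1 of the CSAA preparations or without CDAA preparation 2, and 1 (Gnmt) without CDAA preparation 3, against 1.33%.

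Whether the diet difference itself differed between the tissues was tested as total liver minus hepatocytes. The arrays of the tissues differ in scale, so the size of this difference holds on the deposited scale only. Hepatocyte markers leaned the same way, with a median diet difference of -0.40 in liver and -1.09 in hepatocytes. The estimate was above 0 for all 9 enzymes, from 0.37 to 1.91, beside a median of 0.02 over all tested probe sets. None passed in limma's shared fit (adjusted p = 0.137 to 0.835, against 2.57% of all probe sets called), and 2, Ahcy and Dmgdh, had an unadjusted p under 0.05, against 11.8% of all probe sets. Weighting arrays by the spread of their tissue gave 0 as well. Weighting each array on its own gave 4 above 0 (Chdh, Cbs, Dmgdh and Sardh), against 4.66% of all probe sets, and leaving out CDAA preparation 1 gave those 4 and Ahcy, against 4.62%.

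Bhmt, Bhmt2 and Dmgdh are consecutive protein-coding genes on mouse chromosome 13, and their diet differences in liver were unequal: -0.13, -0.84 and -0.60. Bhmt2 and Dmgdh are transcribed away from each other from starts 133 bases apart, so both share an upstream region, while Bhmt has its own. The bases between the 2 starts and the 250 bases upstream of Bhmt and of Gnmt are shown, since these genes hold the contrast in liver. RefSeq promoter entries (GRCm38.p6) matched 8 of the 9 genes, all but Mat1a. Capitals mark matches, on either strand, to the nuclear receptor half-site AGGTCA, to the GC box written GGGCGG, to the TATA box written TATAAA and to the CCAAT box.
Bhmt2 and Dmgdh, chr13:93674303-93674435, plus strand: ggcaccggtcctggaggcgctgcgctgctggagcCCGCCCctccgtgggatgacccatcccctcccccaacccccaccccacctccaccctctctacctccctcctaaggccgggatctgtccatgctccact
Bhmt, chr13:93637759-93638008, minus strand: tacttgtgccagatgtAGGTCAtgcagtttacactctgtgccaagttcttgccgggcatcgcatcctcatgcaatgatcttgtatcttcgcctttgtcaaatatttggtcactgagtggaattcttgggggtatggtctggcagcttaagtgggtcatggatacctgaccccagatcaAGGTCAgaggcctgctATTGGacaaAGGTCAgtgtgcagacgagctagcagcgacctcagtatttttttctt
Gnmt, chr17:46729166-46729415, minus strand: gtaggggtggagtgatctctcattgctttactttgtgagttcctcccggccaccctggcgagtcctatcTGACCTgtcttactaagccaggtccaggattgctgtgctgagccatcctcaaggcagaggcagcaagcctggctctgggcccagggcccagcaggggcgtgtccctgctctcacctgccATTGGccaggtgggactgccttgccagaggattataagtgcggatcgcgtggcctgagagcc

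The shared region is 69.9% G and C and holds 1 GC box and none of the other 3 motifs. The Bhmt window is 48.0% G and C and holds 3 half-sites and 1 CCAAT box but no GC box, and that of Gnmt, at 60.4%, holds 1 half-site and 1 CCAAT box. Over 32851 windows of 250 bases, 14% hold the half-site, 32.7% the GC box, 12.4% the TATA box and 33.8% the CCAAT box. The median G and C content is 52.4%. These shares do not apply to the shared region, which is only 133 bases long. The 250 bases upstream of Bhmt2 hold 2 GC boxes (74.0% G and C) and those of Dmgdh 1 (64.8%). The matches are a description of these letters only.

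Since Bhmt2 and Bhmt are read on the same array, their ratio is free of any constant shift of an array. The log2 ratio of Bhmt2 over Bhmt was -5.38, -5.41, -5.05 and -5.17 in CDAA livers, against -4.58, -4.40, -4.70 and -4.47 in CSAA livers. It was -6.93, -7.07 and -6.86 in CDAA hepatocyte preparations, against -6.24, -6.54 and -6.48 in CSAA preparations. The groups did not overlap in either tissue, and the CDAA preparations, which scattered widely for each gene, lay close together in the ratio. The difference in the ratio was -0.71 in liver (exact two-sided permutation p = 0.0286, the smallest that 4 against 4 arrays allow, and 0.114 adjusted over 4 tests) and -0.53 in hepatocytes (exact p = 0.1, the smallest for 3 against 3, and 0.2 adjusted). Neither ratio passed after adjustment. How often the ratios of other gene pairs part the diet groups was not counted. Bhmt reads near the array maxima, and whether its signal is compressed there was not tested. Whether probes of these paralogs cross-hybridise was not checked.

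**Figure D4:**
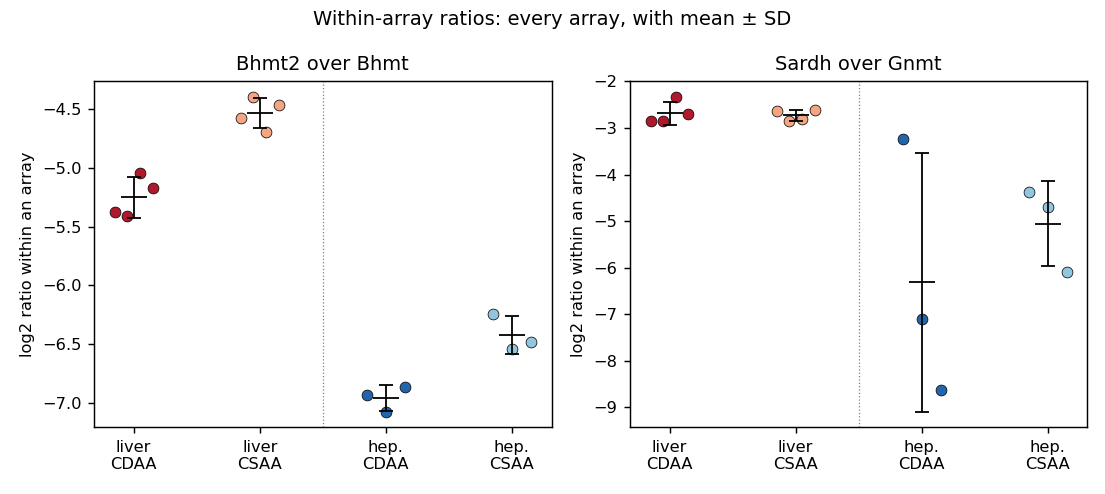
Log2 ratio within an array (y axis) of Bhmt2 over Bhmt (left) and Sardh over Gnmt (right) in the 4 groups (x axis; hep., primary hepatocytes). Points are arrays and bars mean ± SD. The Bhmt2 over Bhmt ratio is lower on CDAA in both tissues, at -5.25 ± 0.17 against -4.54 ± 0.13 in liver, and Sardh over Gnmt spans -3.23 to -8.62 in the CDAA hepatocyte preparations.

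The ratio of Sardh, which removes sarcosine, over Gnmt, which makes it, averaged -2.68 ± 0.24 in CDAA livers and -2.73 ± 0.12 in CSAA livers (SD, n = 4 each, exact permutation p = 0.857). In hepatocyte preparations it was -3.23, -7.10 and -8.62 on CDAA, against -4.37, -4.70 and -6.10 on CSAA. The CDAA values lie on both sides of the controls (exact p = 0.6).

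By root mean square distance over all 14 arrays, with each gene centred on its CSAA mean per tissue, the nearest profiles to the called enzymes were sought among all named genes. For Sardh they were Tfr2 (0.254), Sema4g (0.263) and Wdtc1 (0.266), and for Cbs Enpp3 (0.257), Tfr2 (0.321) and Sardh itself (0.325). Dmgdh lay nearest to Tmprss6 (0.315), Esrp2 (0.327) and Sardh (0.345), so Sardh was among the 3 nearest genes of both Cbs and Dmgdh. Bhmt2 lay nearest to Dnajc22 (0.221), Aasdh (0.227) and Plxnb1 (0.237), and Ahcy to Tmem211 (0.183), Ndufv1 (0.204) and Gstk1 (0.234). Gnmt lay nearest to Pcca (0.291), Pyurf (0.318) and Cfhr2 (0.323). Tfr2, a transferrin receptor of hepatocytes, is also 1 of the hepatocyte markers used above.

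Around the cycle, lists of neighbouring genes moved in both directions, read here in the shared fit against 6.73% higher and 3.54% lower over all probe sets in liver, and 11% and 7.74% in hepatocytes. Hepatocytes here means the preparations, which on CDAA also carried markers of other cell types. The cell source of a rise in them was not tested. Of 11 other genes of the methionine cycle and salvage, 2 rose in liver: Mtap (0.73 ± 0.21), which starts methionine salvage, and Enoph1, a later salvage enzyme. Enoph1 averaged 7.92 in CDAA livers and 7.21 in CSAA livers (adjusted p = 0.0411), all under the control percentile, so no fold is given. In hepatocytes 1 of 11 fell, the salvage dioxygenase Adi1 (-1.07 ± 0.25). Cth, which follows Cbs in transsulfuration, had 0.08 ± 0.23 in liver and -0.73 ± 0.27 in hepatocytes without passing. Mtr, the folate-dependent methionine synthase, lay under that percentile on every liver array and had 0.53 ± 0.39 in hepatocytes without passing, with 1 of 3 CDAA and 2 of 3 CSAA arrays under it.

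Of 11 genes of choline and betaine supply, 1 fell in liver, and 3 fell and 1 rose in hepatocytes. Pipox, which oxidises sarcosine in peroxisomes, fell in both, by 1.21 on the log2 scale in liver (SE 0.26) and by 1.52 in hepatocytes (SE 0.30). Aldh7a1, which can oxidise betaine aldehyde to betaine, fell in hepatocytes (-1.31 ± 0.26) and had -0.46 ± 0.22 in liver. The betaine carrier Slc6a12 fell in hepatocytes (-2.03 ± 0.50), with 2 of 3 CDAA arrays under the control percentile. The choline transporter-like gene Slc44a2 rose there (adjusted p = 0.000251), with a mean of 6.60 on CDAA and 4.30 on CSAA. All its CSAA arrays and 1 of 3 CDAA arrays lay under the control percentile, so no fold is given. Slc44a1, a choline transporter, had -0.64 ± 0.42 in liver and -0.22 ± 0.48 in hepatocytes.

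**Figure D5:**
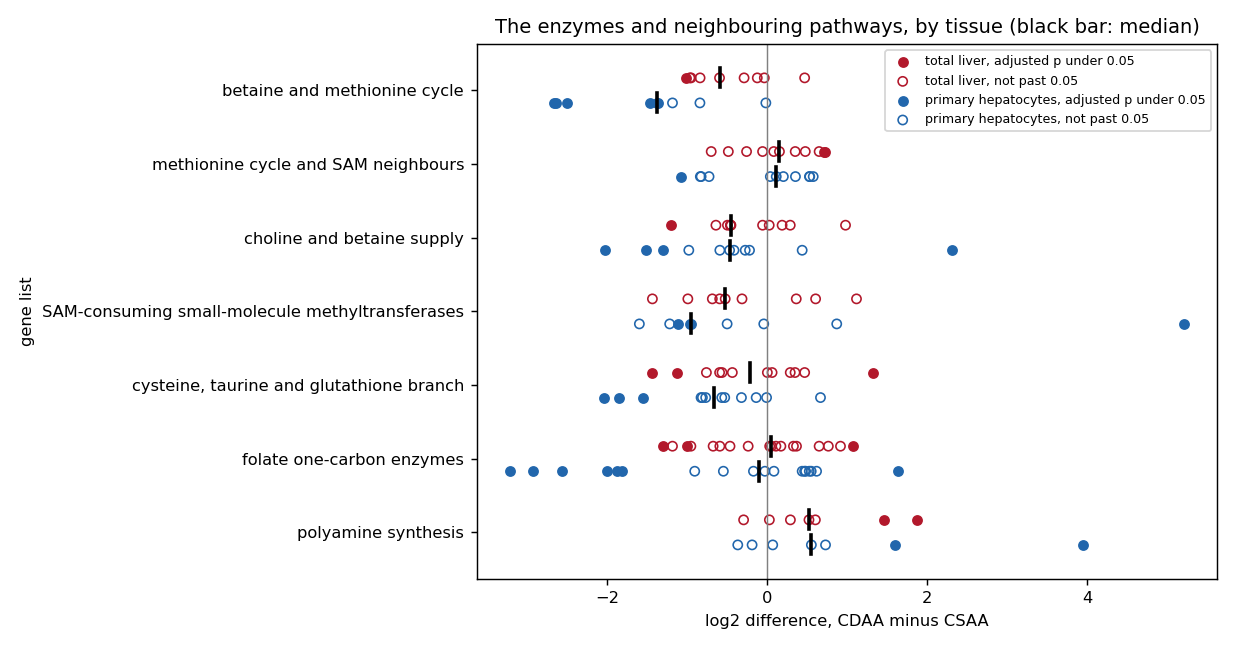
Log2 difference between diets, CDAA minus CSAA (x axis), of the 9 enzymes and of 6 neighbouring gene lists (y axis). Points are genes in total liver (upper row of each list) or hepatocytes (lower row), filled where the adjusted p of the shared fit was under 0.05, and black bars are medians. The enzymes have the lowest medians, at -0.60 and -1.38, and polyamine genes the highest, at 0.52 and 0.55.

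Of 9 measured genes listed with S-adenosylmethionine-consuming methyltransferases, none passed in liver with limma's shared fit (5 at an unadjusted p under 0.05, against 23.6% of all probe sets). In the liver-only fit 2 fell, against 9.05% of all probe sets, and 2 rose, against 11.7%. In hepatocytes 3 fell and 1 rose in the shared fit. Gamt, which makes creatine and is a major methyl consumer, fell in hepatocytes (-1.12 ± 0.32), as did Tpmt (-0.97 ± 0.31). Icmt fell there too (-0.95 ± 0.28), with 2 of 3 CDAA and 2 of 3 CSAA arrays under the control percentile. Gatm, which is no methyltransferase but makes the substrate of Gamt, rose in hepatocyte preparations (adjusted p = 1.47e-05), with a mean of 10.31 on CDAA and 5.11 on CSAA. All CSAA arrays lay under the control percentile there, and measured against that percentile Gatm was at least 5.94-fold higher on CDAA. Gatm ran from 8.13 to 11.53 in CDAA preparations, where recruited macrophage markers averaged 10.14 to 11.96, against 4.12 to 4.31 on CSAA. Which cells gave the Gatm signal was not tested. In liver Gatm lay under the control percentile on every array. Pemt, which methylates phosphatidylethanolamine to phosphatidylcholine, had -0.32 ± 0.18 in liver and -0.50 ± 0.21 in hepatocytes. Nnmt, the nicotinamide methyltransferase, had -1.44 ± 0.59 in liver and -1.60 ± 0.68 in hepatocytes. Neither passed.

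Past transsulfuration, 2 of 12 genes of the cysteine, taurine and glutathione branch fell and 1 rose in liver, and 3 fell in hepatocytes. The mercaptopyruvate sulfurtransferase Mpst fell in hepatocytes (-2.05 ± 0.26), with 2 of 3 CDAA arrays under the control percentile. In liver it averaged 7.47 on CDAA and 8.91 on CSAA (adjusted p = 0.000545), all under that percentile, so no fold is given. The sulfite oxidase Suox fell in both (-1.13 ± 0.34 in liver, with 1 of 4 CDAA arrays under it, and -1.85 ± 0.40 in hepatocytes, with 1 of 3), and the aminotransferase Got1 fell in hepatocytes (-1.55 ± 0.35). Gss, glutathione synthetase, rose in liver (1.32 ± 0.29) and had 0.66 ± 0.34 in hepatocytes.

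Of 18 folate enzymes, 2 fell and 1 rose in liver, and 6 fell and 1 rose in hepatocytes. Shmt1, the cytosolic serine hydroxymethyltransferase, fell in both (-1.30 ± 0.22 in liver, -2.01 ± 0.26 in hepatocytes). Ftcd, which passes the formimino group of histidine to folate, fell in both (-1.01 ± 0.21 and -2.92 ± 0.25), and its difference between tissues passed (1.92 ± 0.33, adjusted p = 0.00313). Of the other named genes, Sat1 (-2.08 ± 0.48, adjusted p = 0.0275) and Gatm (adjusted p = 0.0102) passed for that difference, both on the opposite side of 0. Aldh1l1 and Mthfd1, cytosolic folate enzymes, fell in hepatocytes (-2.57 ± 0.45 and -1.88 ± 0.37) and had -1.19 ± 0.39 and -0.96 ± 0.32 in liver. The mitochondrial Mthfd1l rose in liver (adjusted p = 0.0433), averaging 6.74 on CDAA and 5.66 on CSAA, all under the control percentile, so no fold is given. Of 7 polyamine genes 2 rose in liver, Sat1 (1.87 ± 0.31), which breaks polyamines down, and Srm, spermidine synthase (1.46 ± 0.35). In hepatocyte preparations Sat1 (3.95 ± 0.36) and Sms rose, with the cell source not tested. Sms averaged 7.86 on CDAA and 6.27 on CSAA (adjusted p = 0.0114 in the shared fit, 0.11 in the hepatocyte-only fit). The diet groups overlapped, with 6.86 the lowest CDAA and 6.99 the highest CSAA value. All CSAA arrays lay under the control percentile, and no fold is given. Against the CSAA mean, CDAA preparations 1, 2 and 3 averaged -0.05, -0.38 and -0.95 for choline and betaine supply, -0.15, -0.68 and -1.36 for the cysteine branch and -0.43, -0.53 and -0.92 for folate enzymes, in the order of the hepatocyte markers. They averaged -0.18, 0.11 and -0.24 for methionine cycle neighbours, -0.62, 0.44 and 0.07 for the methyltransferase list and 0.52, 1.41 and 0.78 for polyamine genes, in other orders. The part of the markers in any list was not tested.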

How the data were processed

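The deposited values are log2 probe set intensities, made by the authors with RMA (version not stated) per the submitters' processing notes; the labels name WT PLUS labelling. Of 28846 probe sets, 6640 control probe sets were left out and 22206 tested without a filter; 19572 had 1 gene symbol, 0 several and 2634 none. Of the control probe sets, 5222 negative controls gave the background percentile, which bounds a fold where a whole group lay under it. Samples were grouped by title. In limma 3.58.1 (R 4.3.3) the 14 arrays entered 1 fit with a mean for each group (10 residual and 5.11 prior degrees of freedom), two-sided moderated tests and a threshold of 0.05. Array number limits precision. The planned ratio of Mat2a over Mat1a was not run. Named genes were all 9 enzymes, up to 4 called genes per neighbouring list and contrast, 8 further genes (6 measured), and the 3 nearest profiles of each called enzyme. Members and lists were chosen with earlier results of these data known. Alternatives covered moderation, spread, weights, dim probe sets, normalization, centring, pairing, single arrays, probe set averaging and a floor; the tissue-only fits without single arrays and the combined centring were added after the data were seen. Code was tested on simulated data.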

Additional observations from a re-analysis of the deposited data

How the results depend on the processing

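The calls depend on which spread is used, and 3 or 4 arrays per group limit all of them. In total liver the shared fit called 1 enzyme. With lower and higher calls together, the count was 6 in the liver-only fit, 3 with weights by tissue, 5 with a weight per array and 3 after joint quantile normalization. In each of these Mat1a was the only enzyme called higher. The count was 2, both lower, after centring on array medians. It was 0 after quantile normalization within each tissue or with a floor at the control percentile. The count was also 0 without any 1 liver array. Hepatocyte arrays enter the shared spread too, and leaving 1 out could raise the liver calls. Without hepatocyte CDAA preparation 1, Bhmt2, Gnmt, Cbs and Sardh fell in liver (shared-fit adjusted p = 0.0386, 0.00765, 0.0489 and 0.0107). Without preparation 3, Bhmt2 and Gnmt fell (0.0103 and 0.00593), and without preparation 2 Gnmt did not pass (0.0552). The liver-only count was 4 to 6 without 1 array and 1 (Mat1a, higher) after centring on hepatocyte markers. In hepatocytes the 6 calls of the shared fit became 6 to 8 without 1 hepatocyte array, and the 1 call of the hepatocyte-only fit became 0 to 6. The difference between tissues, with 0 calls, gave 4 with a weight per array and 0 to 5 without 1 array. Trend and robust moderation, averaging of probe sets and leaving out the dimmest 30% of probe sets kept each of these 3 shared-fit counts of enzymes.

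Equal replicate numbers were not treated as pairs in the main fit. Their residual correlations were 0.02, -0.01, -0.13 and -0.02 in liver and 0.35, -0.21 and 0.26 in hepatocytes. So few pairs cannot decide whether the numbers pair the samples. A replicate block gave 2 enzymes in liver, 6 in hepatocytes and 1 for the difference, and in a sign-flip test by replicate number the liver ratio of Bhmt2 over Bhmt, at -0.71, had an exact p = 0.125, the smallest that 4 pairs allow. Without 1 array that ratio ran from -0.78 to -0.66 in liver and from -0.59 to -0.44 in hepatocytes, and Sardh over Gnmt from -0.07 to 0.10 in liver and from -2.80 to -0.11 in hepatocytes.

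Over all probe sets, the 2279 calls in liver became 4613 in the liver-only fit, 4604 with weights by tissue and 4992 with a weight per array. They became 2103 after joint and 2332 after within-tissue quantile normalization, and 2915 after centring on array medians. They became 5472 after hepatocyte-marker centring, 613 with the floor and 1510 to 1911 without 1 liver array. The liver-only count became 10027 after that centring and 3495 to 4131 without 1 array. The 4158 calls in hepatocytes became 1883 in the hepatocyte-only fit, 2529 with weights by tissue and 6806 with a weight per array. They became 16933 after centring on hepatocyte markers, 17927 with the floor, which differs between arrays by construction, and 3039 to 5811 without 1 hepatocyte array. The hepatocyte-only count became 11301 after centring and 1090 to 3221 without 1 array. The 570 calls for the difference became 2725 with a weight per array, 980 after centring and 396 to 2265 without 1 array.

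Centring on hepatocyte markers adds 1 constant per array to every gene, and moved the median difference of all probe sets to 0.51 in liver, 1.08 in hepatocytes and -0.59 for the difference between tissues, against -0.09, -0.13 and 0.02 on the deposited scale. A sign that it turns is therefore no result about that gene. In liver the turned values were 0.47 for Bhmt, 0.56 for Chdh, 0.31 for Ahcy, 0.00 for Dmgdh and Tpmt, 0.11 for Adi1, 0.14 for Aldh7a1, 0.10 for Slc6a12, 0.28 for Pemt and 0.07 for Icmt. In hepatocytes they were 0.37 for Bhmt, 0.02 for Chdh, 1.19 for Mat1a, 0.48 for Cth, 0.14 for Adi1, 0.99 for Slc44a1, 0.71 for Pemt, 0.09 for Gamt, 0.24 for Tpmt and 0.26 for Icmt. The difference between tissues became -0.08 for Bhmt2, -0.24 for Gnmt and -0.12 for Mat1a, with weights by tissue as well.

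Other settings that turned a sign follow. Joint and within-tissue quantile normalization gave Mtr -0.02 and -0.01 in liver, Mat1a 0.10 and 0.12 in hepatocytes and Enoph1 -0.28 and -0.26 there, and joint normalization gave -0.00 for the Gnmt difference between tissues. Centring on array medians gave Cth -0.06 in liver and Enoph1 -0.05 in hepatocytes, a weight per array gave Mat1a 0.12 in hepatocytes, and the floor, which itself averaged 7.16 on CDAA and 7.74 on CSAA arrays, gave Mtr -0.04 and Slc44a2 -0.43 there by its construction. Without 1 array, Chdh ran from -0.18 to 0.14 and Cth from -0.04 to 0.27 in liver, and in hepatocytes Mat1a ran from -0.20 to 0.24, Slc44a1 from -1.01 to 0.19 and Enoph1 from -0.16 to 0.36. The Gnmt difference between tissues ran from -0.07 to 0.85, the lowest without hepatocyte CDAA preparation 1. The floor gave no value for 9 named genes in liver and 2 in hepatocytes, which lay at it on every array.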
